A study of Mus musculus with 6 samples.

Results

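The T cell receptor complex and its first signalling steps were followed here through 10 genes: the CD3 chains Cd3d, Cd3e, Cd3g and Cd247, the kinases Lck and Zap70, the surface receptors Cd2 and Cd5, and the coreceptors Cd4 and Cd8a. They were taken by name from the deposited gene table, where each had 1 row among 37447 genes. RNA had been sequenced from flow-sorted microglia, the resident macrophages of nervous tissue, from optic nerves of C57BL/6 mice aged 3 months. The FMC group (4 libraries; FMC 1 and FMC 4 female, FMC 2 and FMC 3 male) came from Nf1 flox/mut mice that also carried GFAP-Cre. The FM group (2 libraries; FM 1 male, FM 2 female) came from Nf1 flox/mut mice without Cre. All mice thus carried a floxed and a mutant allele of Nf1, the gene of neurofibromatosis type 1, so FM is not a wild type. The GFAP promoter is active in astroglial cells and not in the sorted microglia. The sorting gate and any pooling of animals are not given in the sources used here.

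A T cell recognises peptide on an MHC molecule through its alpha and beta receptor chains, which cannot signal on their own. The CD3 chains carry the signalling motifs, which Lck phosphorylates once Cd4 or Cd8a brings it to the receptor, and the phosphorylated motifs then recruit Zap70. Most of these genes are not private to T cells: Lck, Zap70, Cd247 and Cd2 are also used by natural killer (NK) cells, Cd5 by a subset of B cells, and Cd4 and Cd8a by some mouse dendritic cells. Microglia are not known as a source of CD3 RNA, and in a bulk library more T cells and more RNA per T cell cannot be told apart.

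All 10 genes had values above 0 in at least 5 of the 6 libraries, mostly low ones. FMC 1 stood apart: it had the highest level of 8 of the 10 genes, and FM 1 had the highest level of the other two, Zap70 and Cd2, with FMC 1 next. The summed level of the 10 genes was 138 FPKM (fragments scaled to transcript length and to the fragments mapped in the library) in FMC 1, 37.0 in FMC 2, 31.8 in FMC 3 and 27.1 in FMC 4, against 23.5 in FM 1 and 30.3 in FM 2. All 10 genes reached 1 FPKM in FMC 1, and 5 or 6 of them did so in each other library. No gene was called different between FMC and FM (limma, Benjamini-Hochberg adjusted p between 0.967 and 0.999 over 18208 genes), and none had an unadjusted p under 0.05. In the same fit 0.0275% of all genes were called, 5 genes in all.

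**Figure D1:**
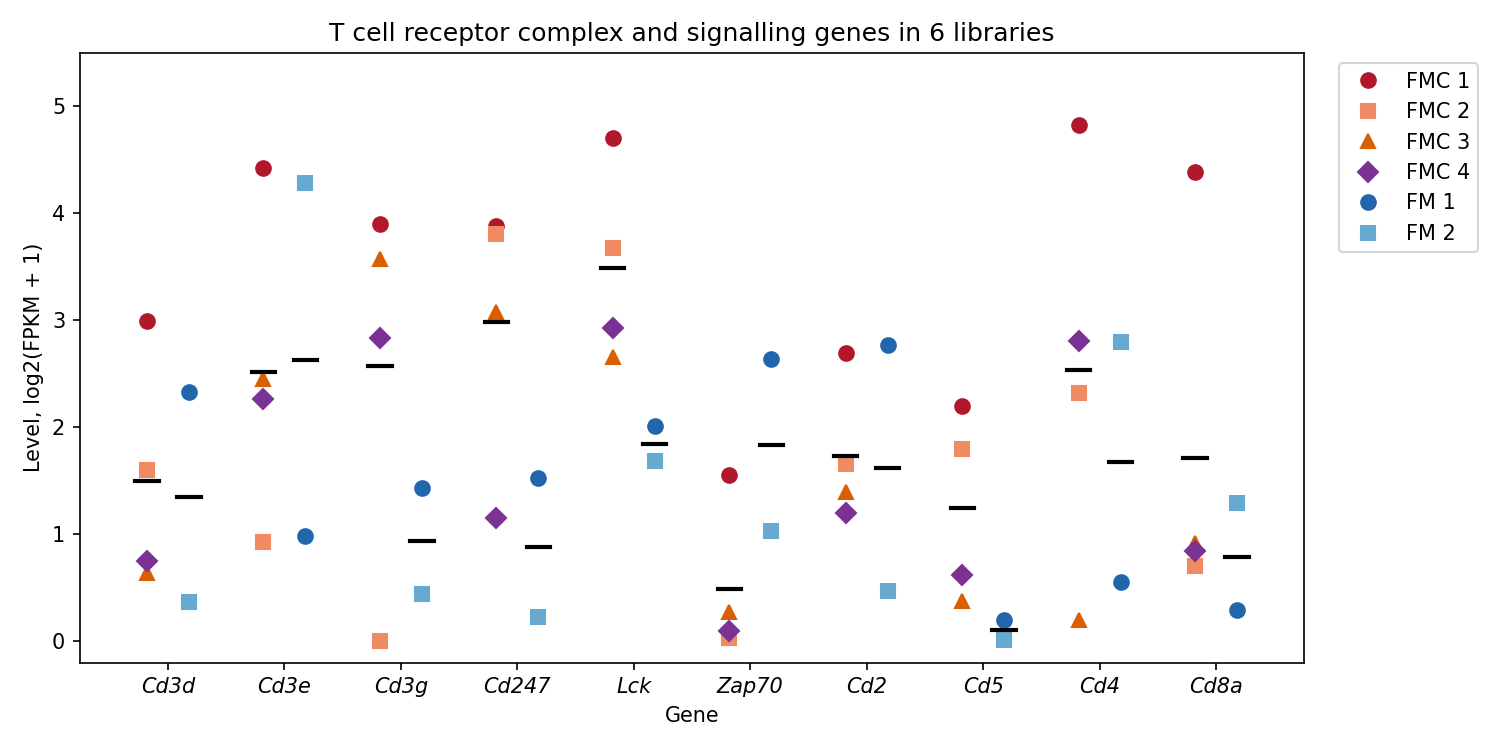
Level of each of the 10 genes on the log2(FPKM + 1) scale (vertical axis), by gene (horizontal axis), with 1 symbol for each library, FMC on the left and FM on the right of each pair, and a bar at the group mean. FMC 1 is the highest library for 8 genes, and the groups are fully separated for Lck and Cd5 only.

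For Lck and Cd5 the lowest FMC library exceeded the higher FM one. The same order was seen in 4.34% of all genes tested, and its reverse in 8.22% of all genes and in none of the 10. Cd5 passed the filter on low values through FMC alone, which favours such an order, so it is not read against that share. With a library left out the order was less demanding for all genes too. Without FM 1 it held for 5 of the 10 (Lck and Cd5 with Cd3d, Cd247 and Cd2), where 13.4% of all genes had it. Of the 5, only Lck reached 1 FPKM in FM 2. Cd5, Cd3d, Cd247 and Cd2 thus passed the filter through FMC alone, and the 5 are not read against that share. Without FMC 4 the order held for 3, among them Cd5 through FMC alone, and for 6.42% of all genes. Without FMC 1 it held for Lck alone of the genes tested, beside 7.89%. Cd5 kept the order there but fell under the filter. The reverse order held for Zap70 without FMC 1, and for 11.1% of all genes. Zap70 passed the filter there through FM alone, so it is not read against that share. Without FM 2 the reverse order held for Zap70 and Cd2, beside 19.1%. RefSeq start windows (build GRCm38.p6, 250 bases before to 50 after a transcript start) were at hand for 8 of the 10 genes, and 5 of the windows are shown for the genes whose levels the results turn on. Lck has an upstream window at chr4:129573592-129573891 and a downstream one at chr4:129558323-129558622, both on the minus strand, and Cd5 has 1 at chr19:10738925-10739224 on the minus strand. Cd3g (chr9:44980382-44980681, minus strand) and Cd3d (chr9:44981536-44981835, plus strand) are shown because the genes lie head to head, with 854 bases between the windows, and yet had unlike levels in the same libraries. Capitals mark 3 short motifs: AGGAAG (Ets-type), TGTGGT (Runx-type) and CANNTG (E-box), each searched on both strands, with overlapping matches run together.
Lck upstream: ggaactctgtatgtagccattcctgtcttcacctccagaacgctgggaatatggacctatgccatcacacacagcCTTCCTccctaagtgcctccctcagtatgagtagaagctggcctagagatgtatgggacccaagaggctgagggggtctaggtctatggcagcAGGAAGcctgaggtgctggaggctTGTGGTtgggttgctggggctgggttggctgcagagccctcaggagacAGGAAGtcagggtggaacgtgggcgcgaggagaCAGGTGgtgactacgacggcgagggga
Lck downstream: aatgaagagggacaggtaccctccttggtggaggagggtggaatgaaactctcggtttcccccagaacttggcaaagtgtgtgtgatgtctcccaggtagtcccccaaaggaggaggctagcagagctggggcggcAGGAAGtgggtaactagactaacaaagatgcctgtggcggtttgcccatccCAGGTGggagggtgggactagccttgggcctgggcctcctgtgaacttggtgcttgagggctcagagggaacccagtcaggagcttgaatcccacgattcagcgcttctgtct
Cd5: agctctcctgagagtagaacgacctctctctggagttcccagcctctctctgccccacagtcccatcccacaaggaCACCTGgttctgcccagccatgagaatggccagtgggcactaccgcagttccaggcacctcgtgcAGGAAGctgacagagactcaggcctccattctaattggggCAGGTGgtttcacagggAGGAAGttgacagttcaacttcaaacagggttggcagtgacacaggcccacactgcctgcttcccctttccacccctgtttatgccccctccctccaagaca
Cd3g: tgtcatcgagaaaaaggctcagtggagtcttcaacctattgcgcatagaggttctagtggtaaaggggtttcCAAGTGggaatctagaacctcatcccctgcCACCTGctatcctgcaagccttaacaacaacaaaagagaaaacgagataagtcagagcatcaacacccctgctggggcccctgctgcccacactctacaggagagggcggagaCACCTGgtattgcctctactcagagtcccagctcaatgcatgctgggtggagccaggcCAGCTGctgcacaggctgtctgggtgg
Cd3d: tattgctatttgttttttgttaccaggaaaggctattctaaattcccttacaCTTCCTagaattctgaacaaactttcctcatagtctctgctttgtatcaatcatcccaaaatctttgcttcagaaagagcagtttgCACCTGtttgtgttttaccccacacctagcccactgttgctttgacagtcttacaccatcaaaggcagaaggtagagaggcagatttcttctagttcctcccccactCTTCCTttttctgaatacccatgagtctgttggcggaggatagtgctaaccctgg
AGGAAG was found in 8 of the 11 windows of these genes and in 35.4% of 32851 RefSeq windows of the same length. TGTGGT was found in 2 of the 11 and in 16.8% of all, and CANNTG in 11 of the 11 and in 72.3% of all. The upstream Lck window held 3 AGGAAG, 1 TGTGGT and 1 CANNTG, and the downstream one 1, 0 and 1. The Cd5 window held 2 AGGAAG and 2 CANNTG, the Cd3g window 4 CANNTG alone, and the Cd3d window 2 AGGAAG and 1 CANNTG. A match describes these letters only, and the deposited gene level does not separate the Lck starts.

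Among the CD3 chains, Cd3e pairs with either of its sister chains in the receptor. Cd3e (ENSMUSG00000032093, mm9 chr9:44806826-44817673) was at 20.4, 0.908, 4.46 and 3.80 FPKM in FMC 1 to FMC 4, against 0.981 and 18.4 FPKM in FM 1 and FM 2. The highest library of each group was more than 4 times above the next, and the FMC range held both FM libraries. The means were 7.40 ± 8.83 FPKM in FMC (SD, n = 4) and 9.71 ± 12.3 FPKM in FM (SD, n = 2), and the log2(FPKM + 1) difference of -0.12 ± 1.19 (SE) turned to 0.02 with median ratio scaling and 0.09 with quantile normalization.

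Cd3d (ENSMUSG00000032094, mm9 chr9:44789876-44795135), which encodes the delta chain, was at 6.98, 2.04, 0.557 and 0.676 FPKM in FMC 1 to FMC 4, against 4.02 and 0.287 FPKM in FM 1 and FM 2. FM 1, the second highest library here, was low for Cd3e, and FM 2, high for Cd3e, was the lowest. The log2 difference of 0.15 ± 0.94 (SE) became -0.35 without FMC 1 and 1.13 without FM 1.

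Cd3g (ENSMUSG00000002033, mm9 chr9:44777655-44788514), which encodes the gamma chain, was at 13.9, 10.9 and 6.13 FPKM in FMC 1, FMC 3 and FMC 4 and listed at 0 in FMC 2, against 1.69 and 0.359 FPKM in FM 1 and FM 2. In 3 of the 4 FMC libraries it stood above both FM libraries, and FMC 2 lay below both. Its log2 difference was 1.64 ± 1.15 (SE; 95% interval -0.97 to 4.25) and 2.50 without FMC 2, in which a 0 may be a failed estimate. The gene bodies of Cd3g and Cd3d are 1361 bases apart in mm9, those of Cd3d and Cd3e 11690.

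The 3 neighbouring CD3 genes did not keep a fixed proportion. Of their summed FPKM, Cd3e made up 49.4%, 30.8%, 28.0% and 35.8% in FMC 1 to FMC 4, against 14.7% in FM 1 and 96.6% in FM 2. Cd3d made up 69.2% in FMC 2 and 60.0% in FM 1, and at most 16.9% in the other libraries. Cd3g led with 68.5% in FMC 3 and 57.8% in FMC 4. In FM 2 nearly all of the sum was Cd3e, although T cells make the 3 chains together.

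**Figure D2:**
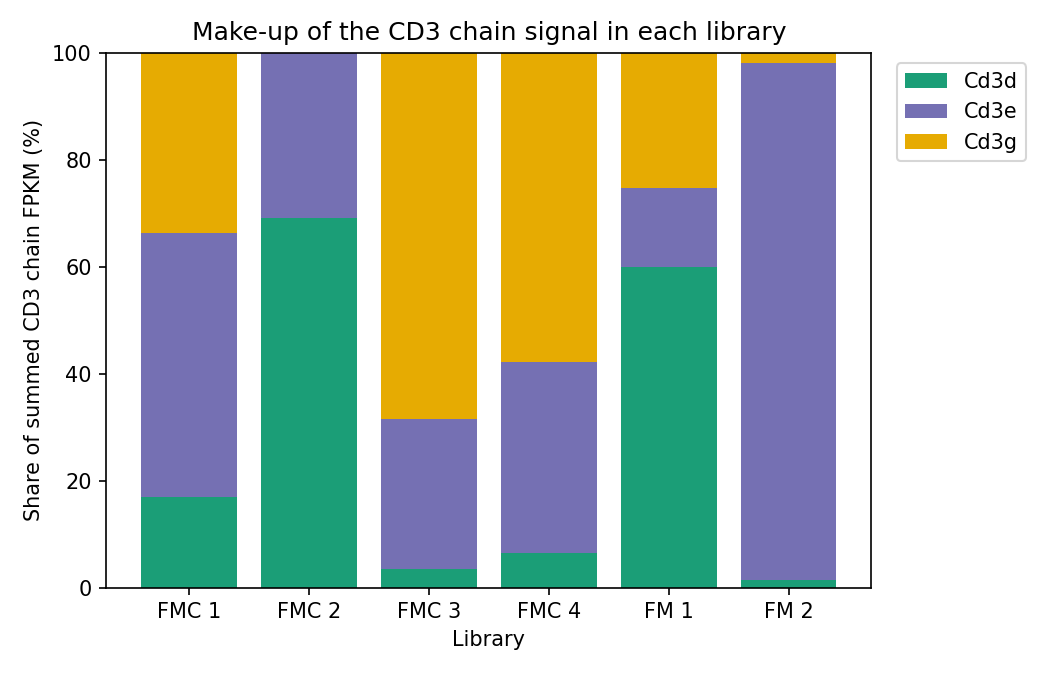
Share of the summed FPKM of Cd3d, Cd3e and Cd3g (vertical axis, percent) in each library (horizontal axis), FMC on the left. Cd3e holds 49.4% in FMC 1 and 96.6% in FM 2, and Cd3d leads in FMC 2 and FM 1.

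On the mean log2(FPKM + 1) of these 3 chains, FMC 1 to FMC 4 stood at 3.77, 0.85, 2.22 and 1.95, against 1.58 and 1.70 in FM 1 and FM 2. The highest and the lowest library were both FMC. The difference of the group means was 0.56, 0.03 without FMC 1 and -0.11 with adjacent title dates as a block.

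Cd247 (ENSMUSG00000005763, mm9 chr1:167718812-167807407), which encodes the zeta chain with most of the signalling motifs of the receptor, was at 13.7, 13.0, 7.47 and 1.22 FPKM in FMC 1 to FMC 4, against 1.88 and 0.172 FPKM in FM 1 and FM 2. FMC 1, FMC 2 and FMC 3 stood above both FM libraries and FMC 4 between them. The log2 difference of 2.10 ± 0.98 (SE; 95% interval -0.11 to 4.32) was the highest of the 10 and had the smallest p (limma p = 0.0602, adjusted p = 0.967; exact two-sided permutation p = 0.20). Cd247 overlaps Pou2f1, a transcription factor gene with 13.8 to 66.5 FPKM in FMC and 33.2 and 62.1 FPKM in FM, and reads of overlapping genes cannot be told apart here without a known strand setting.

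Of the proximal kinases, Lck, the Src family kinase that starts the cascade (ENSMUSG00000000409, mm9 chr4:129225588-129250885), was at 25.1, 11.8, 5.30 and 6.63 FPKM in FMC 1 to FMC 4, against 3.04 and 2.21 FPKM in FM 1 and FM 2. It was the one kinase of this pair whose groups did not overlap, and the FM libraries lay close together. The log2 difference was 1.64 ± 0.77 (SE; 95% interval -0.10 to 3.39), a fold of 3.13 on that scale, with a limma p of 0.0619 (adjusted p = 0.968). The exact two-sided permutation p was 0.133, and with 4 against 2 libraries the smallest p it can give is 0.0667. With 1 library left out the difference lay between 1.24 (without FMC 1) and 1.92 (without FMC 3).

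Zap70 (ENSMUSG00000026117, mm9 chr1:36818695-36839663), the kinase that docks on the phosphorylated chains, was at 1.94, 0.0239, 0.210 and 0.0665 FPKM in FMC 1 to FMC 4, against 5.22 and 1.04 FPKM in FM 1 and FM 2. It ran against Lck: both FM libraries stood above FMC 2, FMC 3 and FMC 4. The log2 difference was -1.34 ± 0.71 (SE; 95% interval -2.96 to 0.27; limma adjusted p = 0.993; exact permutation p = 0.133). It was -0.54 without FM 1 and -2.15 without FM 2, and below 0 in all 15 alternative fits that could test Zap70. These fits reuse the same libraries and are not separate support. Without a filter, without an intensity trend or with sex as a covariate the difference stayed at -1.34. Without FMC 1, Zap70 passed the filter through FM alone. The ratio of Lck to Zap70, both per length, was 12.9, 493, 25.2 and 99.6 in FMC 1 to FMC 4, against 0.582 and 2.12 in FM 1 and FM 2. This ratio was set side by side after the values were seen, and in 3 FMC libraries its denominator was at most 0.210 FPKM.

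Cd5 (ENSMUSG00000024669, mm9 chr19:10792633-10813464), a receptor that dampens T cell receptor signals, was at 3.58, 2.47, 0.296 and 0.539 FPKM in FMC 1 to FMC 4, against 0.144 and 0.00716 FPKM in FM 1 and FM 2. The groups did not overlap, but only FMC 1 and FMC 2 reached 1 FPKM, so Cd5 entered the test through FMC alone. Its log2 difference was 1.14 ± 0.67 (SE; adjusted p = 0.993; exact permutation p = 0.133), and without FMC 1 or FMC 2 it fell under the filter.

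Cd2 (ENSMUSG00000027863, mm9 chr3:101079822-101091862), an adhesion receptor that supports contact with the presenting cell, was at 5.47, 2.15, 1.62 and 1.30 FPKM in FMC 1 to FMC 4, against 5.81 and 0.383 FPKM in FM 1 and FM 2. All FMC libraries lay between the FM libraries. The log2 difference was 0.12 ± 0.89 (SE), with -0.20 without FMC 1, -1.03 without FM 2 and 1.27 without FM 1.

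Of the coreceptors, Cd4 (ENSMUSG00000023274, mm9 chr6:124814710-124838239), which binds MHC class II, was at 27.3, 4.00, 0.150 and 6.00 FPKM in FMC 1 to FMC 4, against 0.469 and 5.96 FPKM in FM 1 and FM 2. FMC 1 was more than 4 times above every other library, and FMC 3 was the lowest. The log2 difference of 0.86 ± 1.27 (SE) was 0.10 without FMC 1 and -0.26 without FM 1.

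Cd8a (ENSMUSG00000053977, mm9 chr6:71323421-71329165), which binds MHC class I, was at 19.9, 0.626, 0.885 and 0.791 FPKM in FMC 1 to FMC 4, against 0.223 and 1.44 FPKM in FM 1 and FM 2. Outside FMC 1 the libraries of the groups were interleaved. The FMC mean of 5.56 ± 9.58 FPKM (SD, n = 4) was 0.767 FPKM over FMC 2 to FMC 4, against 0.832 ± 0.862 FPKM in FM (SD, n = 2). Its log2 difference of 0.92 ± 1.12 (SE) was 0.42 without FM 1 and 0.02 with adjacent title dates as a block, and without FMC 1 Cd8a lay under the filter. In FMC 1 both coreceptors were present at a Cd4 to Cd8a ratio of 1.37, while the other libraries ranged between 0.169 in FMC 3 and 7.59 in FMC 4.

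By mean log2(FPKM + 1) within FMC, the order was Lck (3.49), Cd247 (2.98), Cd3g (2.58), Cd4 (2.54), Cd3e (2.52), Cd2 (1.73), Cd8a (1.71), Cd3d (1.50), Cd5 (1.25) and Zap70 (0.49). Within FM it was Cd3e (2.63), Lck (1.85), Zap70 (1.83), Cd4 (1.68), Cd2 (1.62), Cd3d (1.35), Cd3g (0.94), Cd247 (0.88), Cd8a (0.79) and Cd5 (0.10). No gap between neighbours in either order was wider than the larger SD of the pair. Zap70 had rank 10 in FMC and rank 3 in FM, and Cd247 had rank 2 in FMC and rank 8 in FM.

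Over the 10 genes, 8 log2 differences were above 0 and 2 below, and 9 were above 0 under either scaling alternative, where Cd3e turned. Their median was 0.89, beside -0.12 for all 18208 genes, of which 43.5% were above 0. Median ratio scaling moved the median of all genes to -0.01 and that of the 10 to 0.99, and quantile normalization to 0.02 and 1.10. The 95% interval of each of the 10 differences included 0. Without FMC 1 the differences of Cd3d, Cd3e, Zap70 and Cd2 were below 0. Those of Cd3g, Cd247, Lck and Cd4 were above 0, and Cd5 and Cd8a lay under the filter. Cd5 had entered the main test through FMC alone, which favours a difference above 0. The 8 are thus not read against the 43.5%.

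**Figure D3:**
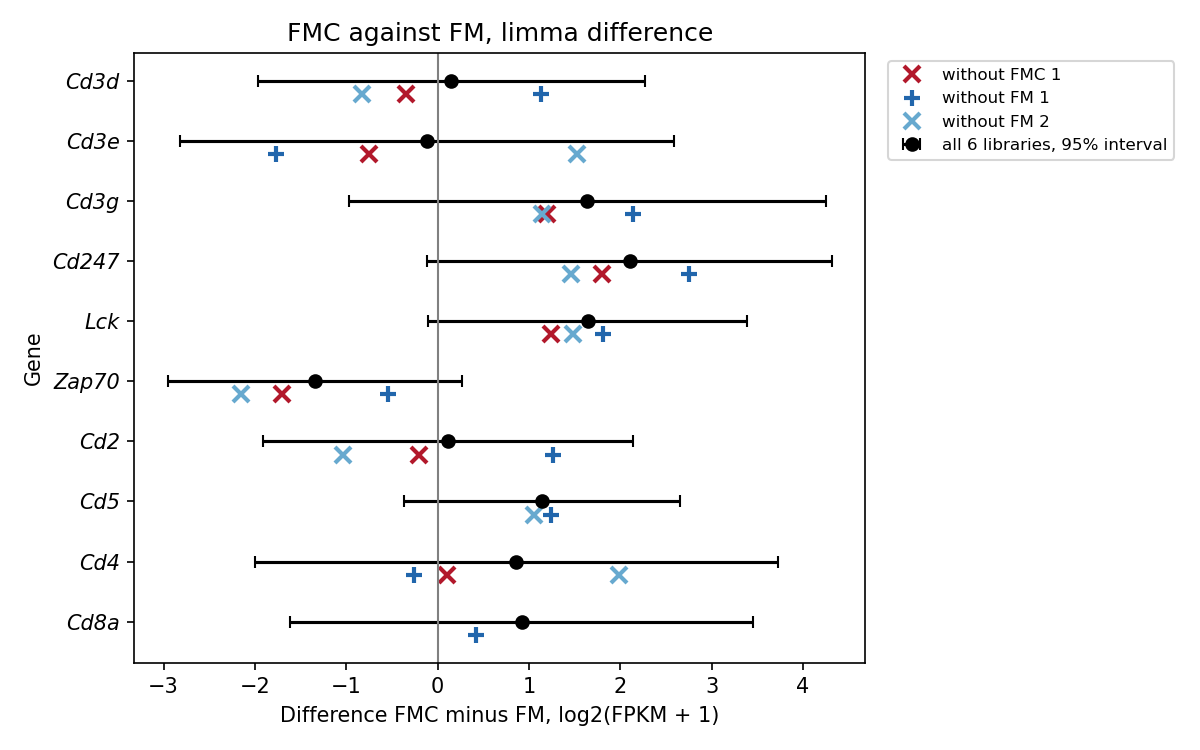
Difference of FMC minus FM in log2(FPKM + 1) (horizontal axis) for each gene (vertical axis), with black points and 95% intervals from limma over all 6 libraries and coloured marks for fits without FMC 1, FM 1 or FM 2 (Cd5 and Cd8a lack the marks of fits whose filter they did not pass). All 10 intervals include 0, and Cd3d, Cd3e, Cd2 and Cd4 lie on opposite sides of 0 without FM 1 and without FM 2.

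Libraries whose titles carry dates 1 day apart gave no common direction; what the dates record is not stated. FMC 2 was above FM 1 in 5 of the 10 genes and FMC 3 above FM 2 in 6. Lck, Cd247 and Cd5 were higher in FMC in both pairs, by 1.66 and 0.97 (log2) for Lck, by 2.28 and 2.85 for Cd247 and by 1.60 and 0.36 for Cd5. Zap70 and Cd3e were lower in both, by -2.60 and -0.76 for Zap70 and by -0.05 and -1.83 for Cd3e. FMC 3 is male and FM 2 female, so that pair mixes sex with genotype. Cd5 had passed the filter through FMC alone, and the share of all genes with such orders in the pairs was not counted.

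Within each sex there was a single FM library to compare with. Lck, Cd247 and Cd5 were above it in both sexes, where Cd5 had passed the filter through FMC alone. Cd3d and Cd2 were below FM 1 in both male FMC libraries and above FM 2 in both female ones. The share of all genes with such orders within a sex was not counted, so they are not read further. The interaction of genotype and sex was -2.71 ± 1.81 (SE) for Cd3d and -2.72 ± 1.55 (SE) for Cd2 on the log2 scale (male minus female; limma adjusted p = 0.999 for both), and of all genes 0 were called and 686 had an unadjusted p under 0.05.

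The receptor's own alpha and beta chains are measured through their constant segments, which were looked up after the values of the 10 genes had been seen. Trac (alpha) was at 137, 50.1, 32.0 and 4.88 FPKM in FMC 1 to FMC 4, against 8.93 and 7.89 FPKM in FM 1 and FM 2. It ranked the FMC libraries as Cd247 did, with FMC 4 lowest and under both FM libraries (log2 difference 1.86 ± 1.06 SE, adjusted p = 0.993). Trbc1 (beta) was at 28.1, 4.41, 10.1 and 5.52 FPKM in FMC 1 to FMC 4, against 4.73 and 6.62 FPKM in FM 1 and FM 2. Trbc2 (beta) was at 54.9, 1.86, 18.9 and 11.8 FPKM in FMC 1 to FMC 4, against 30.7 and 25.6 FPKM in FM 1 and FM 2. The beta segments are near-identical, so their reads may be split between them. The gamma segment Tcrg-C, of gamma delta T cells, was at 10.2 FPKM in FMC 1 and at most 0.530 FPKM in the other FMC libraries, against 0.644 and 2.49 FPKM in FM 1 and FM 2. All 4 constant segments were highest in FMC 1 and above 0 in every library, FM included.

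The wider pathway was read from a list of 40 further genes, of which Dgkz had no value in FMC 1 and 33 passed the filter. Of these 33, 21 had a difference above 0 and 12 below (24 and 9 with median ratio scaling, 22 and 11 with quantile normalization), with a median of 0.17. limma called 0 of them, and 2 had an unadjusted p under 0.05, as had 973 of all 18208 genes. The groups were separated with FMC above in 3 of the 33 (Ptprc, Fyn and Cblb) and with FMC below in 1 (Sh2d1a), beside 4.34% and 8.22% of all genes. Sh2d1a, also 1 of the 2 with an unadjusted p under 0.05, passed the filter through FM alone. It is not read against these shares. Ubash3a, Cd6 and Bcl10 passed through FMC alone, which favours a difference above 0. Of all genes 43.5% were above 0, and the 21 and the counts by group below are not read against that share.

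Of receptor and coreceptor chains, 5 of 7 tested were above 0. Cd8b1, the partner of Cd8a, was at 4.54, 1.38, 3.89 and 0.532 FPKM in FMC 1 to FMC 4, against 1.05 and 0.208 FPKM in FM 1 and FM 2 (log2 difference 1.00 ± 0.77 SE, adjusted p = 0.993). Ptprc, which encodes the phosphatase CD45 of all leukocytes, was at 105 to 125 FPKM in FMC, against 67.8 and 95.8 FPKM in FM (0.53 ± 0.41 SE).

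Of kinases and adaptors, 3 of 11 tested were above 0, and 6 with median ratio scaling. Fyn, the other Src family kinase of the receptor and also a kinase of many other cells, was at 19.2, 18.9, 16.3 and 17.3 FPKM in FMC 1 to FMC 4, against 4.41 and 10.0 FPKM in FM 1 and FM 2. The FMC values were close together and all above FM (log2 difference 1.29 ± 0.55 SE, limma adjusted p = 0.901). Sh2d1a, the adaptor SAP of T and NK cells, was at 0.0201 to 0.215 FPKM in FMC, against 12.4 and 2.57 FPKM in FM 1 and FM 2. It passed the filter through FM alone, so its difference and its place among the separated genes were favoured by the filter and are not read further.

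Lat, the membrane scaffold that Zap70 phosphorylates, was at 16.6, 0.186, 1.91 and 2.91 FPKM in FMC 1 to FMC 4, against 12.5 and 0.237 FPKM in FM 1 and FM 2. FMC 1 and FM 1 were the high libraries, as for Cd3d, but FMC 2 was the lowest. Lcp2, an adaptor that myeloid cells also use, was at 59.6 to 136 FPKM in FMC, against 84.8 and 89.7 FPKM in FM 1 and FM 2. Vav1, an exchange factor of all blood lineages, was at 52.9 to 70.5 FPKM in FMC, against 68.6 and 62.5 FPKM in FM 1 and FM 2. Syk, the relative of Zap70 in myeloid and B cells, was at 24.5 to 26.5 FPKM in FMC, against 12.3 and 21.9 FPKM in FM (0.61 ± 0.48 SE). Per length, Zap70 was below Syk in each of the 6 libraries.

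Of downstream genes 6 of 7, and of inhibitors 7 of 8, had a difference above 0, with medians of 0.45 and 0.62. Pag1, which holds the inhibitory kinase Csk at the membrane, was at 27.5 to 51.8 FPKM in FMC, against 32.7 and 13.1 FPKM in FM (0.77 ± 0.54 SE). Ubash3a, a T cell suppressor of receptor signals, was at 3.85, 3.17, 0.00870 and 0.283 FPKM in FMC 1 to FMC 4, against 0.238 and 0.0153 FPKM in FM 1 and FM 2 (1.01 ± 0.76 SE). Ubash3a reached 1 FPKM in FMC 1 and FMC 2 only, so it entered the test through FMC alone, which favours a difference above 0. FMC 1 and FMC 2 were also the libraries high for Cd5, which passed the filter in the same way.

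Microglial markers were present in every library: the 10 on the list (P2ry12, Tmem119 and others) summed to 2731 to 4240 FPKM in FMC and 2873 and 5223 FPKM in FM, with none at 0. The list of 20 T cell markers, 9 of which are among the 10 genes, summed to 201 FPKM in FMC 1 and 46.4 to 80.7 FPKM in the other FMC libraries, against 59.7 and 39.0 FPKM in FM 1 and FM 2, and 15 of the 20 were highest in FMC 1. Of T cell genes outside the 10, Tcf7, Lef1 and Ccr7 were at 11.4, 12.5 and 10.4 FPKM in FMC 1, and Lef1 was under 1 FPKM in all 5 other libraries.

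B cell markers were also high in FMC 1, while NK markers were not highest there as a list. The 8 B cell markers summed to 156 FPKM in FMC 1 and 34.9 to 59.0 FPKM in FMC 2 to FMC 4, against 48.5 and 121 FPKM in FM 1 and FM 2. Of the 8, 6 were highest in FMC 1, among them Pax5 at 19.9 FPKM. Cd79b was highest in FM 2, where it gave 98.4 of the 121 FPKM, against 45.8 FPKM in FMC 1. The 10 NK and cytotoxic markers, whose cells share Lck, Zap70, Cd247 and Cd2, summed to 6.14 to 62.9 FPKM in FMC, against 95.2 and 62.8 FPKM in FM 1 and FM 2. Of the 62.9 FPKM, reached in FMC 1, Nkg7, which cytotoxic T cells also make, gave 46.7. The 4 of the 10 that were tested had a difference below 0 under each scaling. Klrd1, an NK receptor chain, was at 1.08 to 13.1 FPKM in FMC, against 84.4 and 35.7 FPKM in FM (log2 difference -3.42 ± 0.82 SE, adjusted p = 0.487). Klrd1 alone gave 84.4 of the 95.2 FPKM in FM 1. The defining NK gene Ncr1 was at most 0.411 FPKM in FMC, against 0.268 and 7.02 FPKM in FM 1 and FM 2. The list did not move as one, and 4 of its 10 genes were highest in FMC 1. Eomes reached 1.03 FPKM in FMC 2 and Tbx21 0.845 FPKM in FMC 4, against at most 0.142 and 0.103 FPKM in FM. Gzmb was near 0 throughout, at 0.0328 to 0.433 FPKM in FMC and listed at 0 in both FM libraries. Dendritic cell markers summed to 213 to 367 FPKM in FMC, against 304 and 468 FPKM in FM, most of it from Siglech, which microglia also express, and Xcr1 was at most 0.410 FPKM in any library. Other dendritic cell genes were present: Clec9a was at 0.293, 33.5, 2.22 and 6.65 FPKM in FMC 1 to FMC 4, against 12.2 and 5.30 FPKM in FM 1 and FM 2. Flt3 reached 5.29 FPKM in FMC and 1.22 FPKM in FM, and Cd209a 0.809 FPKM in FMC and 4.54 FPKM in FM. The 5 monocyte and border macrophage markers summed to 115 to 152 FPKM in FMC, against 177 and 163 FPKM in FM. The part of these other cells in the levels of the 10 genes was not tested.

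**Figure D4:**
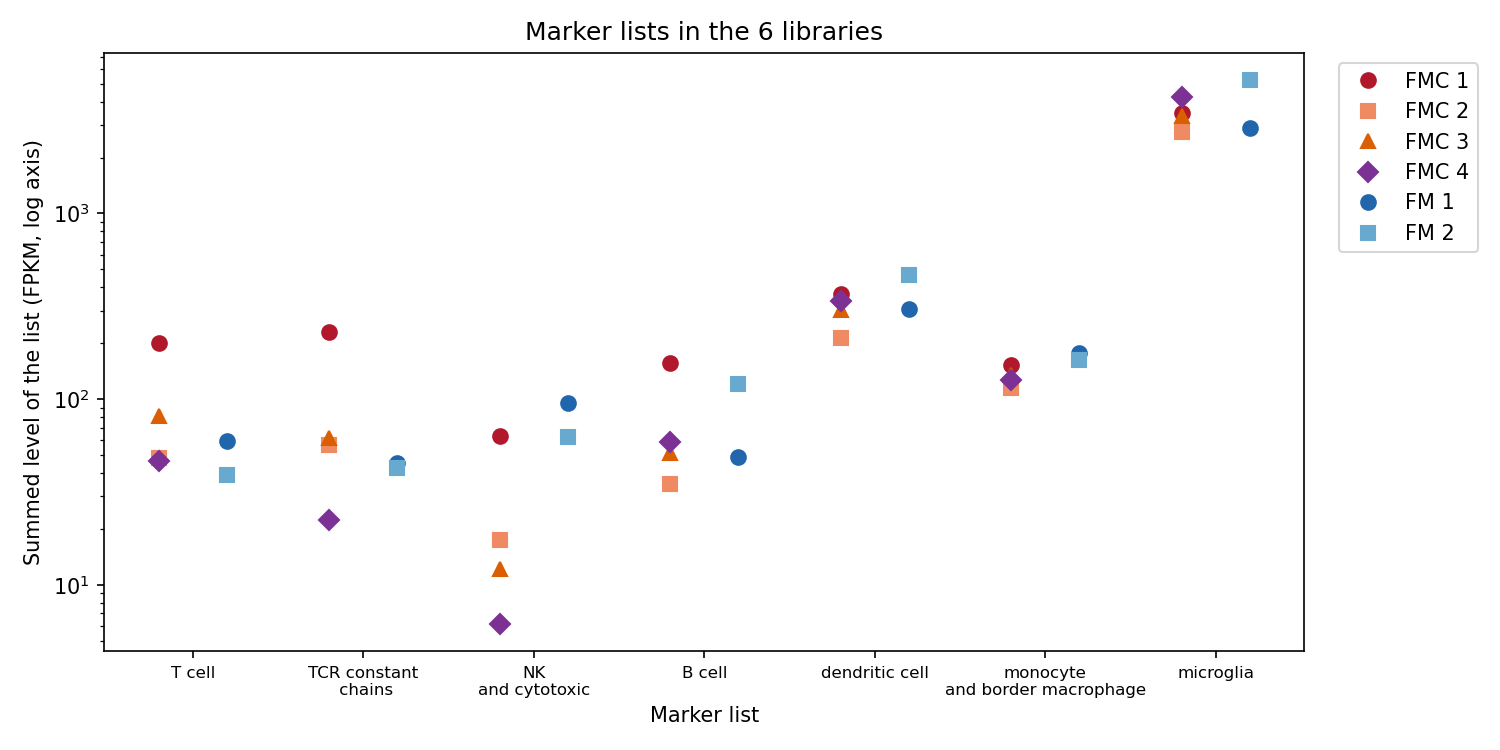
Summed FPKM of each marker list (vertical log axis) by list (horizontal axis), with 1 symbol per library, FMC on the left of each pair. FMC 1 is the highest library for the T cell list (201 FPKM), the receptor constant segments (231 FPKM) and the B cell list (156 FPKM), and the microglial list lies between 2731 and 5223 FPKM.

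The genes whose pattern was most like the mean of Cd3d, Cd3e and Cd3g over the 6 libraries were sought among 8235 other named genes with a mean of at least 5 FPKM. Among the 8 with the highest Pearson's r were Polr3f (0.992), Kpna3 (0.989), Tcp11l1 (0.983), Lrrcc1 (0.979), Pde7a (0.975), Nktr (0.972) and Med24 (0.970). All 8 were highest in FMC 1, as in Pde7a with 41.9, 1.97, 7.34 and 5.08 FPKM in FMC 1 to FMC 4, against 4.79 and 2.84 FPKM in FM 1 and FM 2. With 6 libraries, 1 of them apart, and many genes searched, such values describe these libraries only.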

How the data were processed

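Gene levels were taken as FPKM from the authors' deposited table of 37447 genes in 6 libraries (TRIzol RNA, Ovation amplification, paired-end Illumina sequencing, per the labels' protocols). Per the submitters' processing notes, Cufflinks 2.0.2, TopHat2 2.0.4, Bowtie2 2.0.0 and CASAVA 1.8.2 were among the tools and mm9 the build; their roles and settings are not given in the sources used here. Read depth is unknown, so no counting error is given, and a listed 0 can mean that the estimate failed. Libraries summed to 420285 to 674799 FPKM, with 13390 to 15562 genes at 1 FPKM or more. Starts in the table count from 0, as a mitochondrial gene shows, and 1 was added.

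After 426 genes with a missing value were left out, log2(FPKM + 1) was tested with limma 3.58.1 in R 4.3.3 (intensity trend, two-sided, no covariate, Benjamini-Hochberg, threshold 0.05) in the 18208 genes that reached 1 FPKM in 2 or more libraries; all 10 genes passed. Folds on this scale understate low genes. The code was checked on simulated data. For a symbol with several rows, the row highest on average was taken. Libraries are labelled as biological replicates.

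The genes, lists and tests were chosen with earlier results of these data known. Besides the 10, the rule names the 6 wider-pathway genes with the smallest p, Lat, Fyn, Lcp2, Vav1, Syk and others, up to 3 markers a list and 8 genes like the CD3 mean. The named genes Ncr1, Gzmb, Klrd1, Nkg7, Eomes, Tbx21, Tcf7, Lef1, Ccr7, Pax5, Cd79b, Cblb, Cd6, Bcl10, Pou2f1, Siglech, Xcr1, Clec9a, Flt3, Cd209a and the constant segments were added or singled out after their values were seen. Some genes these rules name are not reported here.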

Additional observations from a re-analysis of the deposited data

Results flagged for a closer look

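Among 24 genes compared across the FMC libraries on the FPKM scale, 4 had 1 FMC library far from the other 3. In all 4 that library was FMC 1: Cd8a at 19.9 FPKM, Zap70 at 1.94 FPKM, Lat at 16.6 FPKM and the gamma segment Tcrg-C at 10.2 FPKM. Zap70 in FMC 1, though apart from the other FMC libraries, was below FM 1. Chance would mark about 1 gene in 20 if values were normally distributed and genes independent. Here FPKM was not log transformed, and the genes share the same libraries. Some were also singled out after their values were seen, so the 4 are not read against that rate. The cause was not tested.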

How the results depend on the processing

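None of the 10 genes was called in any of the 16 alternatives. These reuse the same libraries, and another filter, no intensity trend or sex as a covariate left the differences of the 10 as they were. Cd3g, Cd247, Lck, Zap70, Cd5 and Cd8a kept the sign of their difference wherever they could be tested, but not its size: Cd8a was at 0.019 with adjacent title dates as a block, 0.42 without FM 1 and under the filter without FMC 1, and Zap70 at -0.54 without FM 1 and -2.15 without FM 2. Signs turned for Cd3d with the date block (-0.22), for Cd3e with median ratio scaling (0.021), quantile normalization (0.088) and the replicate block (0.044), for Cd2 with the date block (-0.10) and for Cd4 with the date block (-0.41). With 1 library left out the differences ran from -0.83 to 1.13 for Cd3d, -1.76 to 1.53 for Cd3e, -1.03 to 1.27 for Cd2 and -0.26 to 1.98 for Cd4. The mean of the CD3 chains was 0.56, between 0.03 (without FMC 1) and 1.01 (without FMC 2) with 1 library left out, and -0.11 with the date block. The count of genes whose FMC libraries all lay above FM, an alternative added after the data were seen, was 2 with either scaling. Of all genes, 5.84% had that order with median ratio scaling and 6.7% with quantile normalization. The count was 1 without FMC 1 (7.89% of all genes), 3 without FMC 4 (6.42%) and 5 without FM 1 (13.4%). It was 2 without FMC 2 (7.94%), without FMC 3 (6.87%) and without FM 2 (16.5%). Genes with all FMC libraries below FM, 0 of the 10 otherwise, were 1 without FMC 1 (11.1%) and 2 without FM 2 (19.1%). Cd5 lay under the filter without FMC 1 or FMC 2. Where tested in these fits, it passed through FMC alone, as did Cd3d, Cd247 and Cd2 without FM 1. Zap70 without FMC 1 passed through FM alone. Counts that hold these genes are not read against the shares. Of all genes, 5 were called, against 1 with a pseudocount of 0.1, 0 without a filter, 0 with a mean of at least 5 FPKM, 10 without an intensity trend, 0 with sex as a covariate, 0 with the replicate block, 3 with the date block and 0 to 8 with 1 library left out. The groups share replicate numbers 1 and 2 alone, and nothing in the labels pairs them. In fits without an FM library, the lone one is assumed to vary like FMC. Unknown depth limits values under 1 FPKM most.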
